A study of Mus musculus with 12 samples.

Results

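The transcriptomes of biliary-derived and hepatocyte-derived mouse liver progenitor cells were compared while both were maintained as 2D monolayers. The comparison set the 3 libraries titled bilCLiP_2D against the 3 titled hepCLiP_2D, which are 6 of the 12 RNA-seq libraries of the series, and it covered the 14217 autosomal genes that passed the filter on low counts out of 53599 genes counted. The other 6 libraries were 3D spheroids of the same cells, which entered the fit and its estimate of the spread and whose own values are given only beside the 2D values. CLiPs are chemically induced liver progenitors. Cells of both kinds were kept on collagen-coated plates in a serum-containing small hepatocyte medium that held the YAC inhibitors. These are Y-27632 (a kinase inhibitor), A83-01 (a TGF-beta receptor inhibitor) and CHIR99021 (a GSK3 inhibitor), and cells of both origins received them. All 3 bilCLiP libraries came from cells derived from biliary epithelial cells (BECs) of RosaYFP genotype. The hepCLiP libraries came from hepatocyte-derived cells, of RosaConfetti genotype in replicates 1 and 3 and of RosaYFP genotype in replicate 2. RosaYFP and RosaConfetti are fluorescent reporter alleles at the Rosa26 locus, and no driver that activates them, strain or age of the mice is named in the labels. The treatment label of hepCLiP replicate 3 names 3D culture although its title names 2D, those of all 3 bilCLiP libraries titled 3D name 2D, and the titles were followed. No label ties the replicates to separate animals, so the spread behind each p-value may be technical in part. Each replicate number of an origin is called a line below, because its 2D and 3D libraries deviated together from their groups.

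Hepatocytes and BECs are the epithelial cells of the liver parenchyma and of the bile ducts, and both descend from the hepatoblast of the fetal liver. Hepatocytes secrete plasma proteins and carry out most hepatic metabolism under factors such as HNF4A and C/EBP-alpha, whereas BECs line the ducts, carry primary cilia and express keratins 7 and 19, SOX9 and osteopontin. Each lineage can turn toward the other after liver injury, and culture with the YAC inhibitors converts hepatocytes into proliferating cells with features of both.

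Few single genes separated the origins in 2D. Of the 14217 genes, 19 were called at an adjusted p under 0.05 by edgeR's quasi-likelihood test with Benjamini-Hochberg adjustment, which is 0.134% of those tested. Of these, 11 were higher in bilCLiP cells (0.0774%) and 8 were lower (0.0563%), and 17 differed at least 2-fold (0.12%). Among the higher genes with a mean of at least 5 CPM and an established name, Tm4sf1, Cyba and Sparc differed most, each at least 10 times the hepCLiP level, and the lower ones included the kynurenine aminotransferase gene Kyat3 and the transcription factor gene Gata4. At an unadjusted p under 0.05 there were 2073 genes (14.6%), of which 716 were higher. DESeq2, with another model of the spread, called 455 genes, all 19 among them. It thus called far more genes in all than edgeR, most of them lower in bilCLiP cells, and its counts in the lists below are to be read beside the 455. No share of all genes called by DESeq2 is given, so those counts do not tell whether a list stands out. The fit takes the 2D and 3D libraries of a line as independent, and with the 6 libraries of 2D culture alone edgeR called 4 genes, of which Tm4sf1, Sparc and Dcdc2a are among the 19. All libraries of one origin lay above all of the other in 1246 genes that were higher (8.76%) and 1731 that were lower (12.2%) in bilCLiP cells, and these shares are the background for the gene lists below. A gene that missed the threshold is not thereby shown to be equal between the origins.

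For the 4 called genes with the largest differences for which RefSeq held a promoter window, the 250 bases before the annotated start are shown, 5′ to 3′ on the gene's strand in build GRCm38.p6, to display how their CpG dinucleotides, in capitals, are spread. The deposited counts name another build, so the coordinates belong to the RefSeq table alone.
Tm4sf1 (chr3:57301989-57302238, minus strand): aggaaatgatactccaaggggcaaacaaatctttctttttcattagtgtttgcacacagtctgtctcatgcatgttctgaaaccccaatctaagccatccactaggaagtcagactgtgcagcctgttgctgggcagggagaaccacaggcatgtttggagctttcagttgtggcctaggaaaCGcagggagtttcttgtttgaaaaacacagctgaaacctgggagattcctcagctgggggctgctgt
Cyba (chr8:122432941-122433190, minus strand): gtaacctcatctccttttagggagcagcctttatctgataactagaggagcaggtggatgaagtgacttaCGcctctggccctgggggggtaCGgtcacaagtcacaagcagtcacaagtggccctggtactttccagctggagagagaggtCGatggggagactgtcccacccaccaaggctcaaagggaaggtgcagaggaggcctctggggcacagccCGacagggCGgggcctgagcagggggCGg
Kyat3 (chr3:142700798-142701047, plus strand): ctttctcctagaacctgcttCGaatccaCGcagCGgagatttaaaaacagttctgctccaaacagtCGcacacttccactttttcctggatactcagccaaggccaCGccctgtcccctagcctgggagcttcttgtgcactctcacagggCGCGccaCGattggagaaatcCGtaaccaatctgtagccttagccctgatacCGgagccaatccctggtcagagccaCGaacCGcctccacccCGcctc
Sparc (chr11:55420081-55420330, minus strand): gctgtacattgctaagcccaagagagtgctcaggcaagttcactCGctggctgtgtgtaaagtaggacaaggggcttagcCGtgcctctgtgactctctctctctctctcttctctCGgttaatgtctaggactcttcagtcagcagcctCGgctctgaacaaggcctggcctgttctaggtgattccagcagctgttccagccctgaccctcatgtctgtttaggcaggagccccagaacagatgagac
Tm4sf1 had 1 CpG in this stretch, Sparc had 4, Cyba had 6 and Kyat3 had 13. Over the full windows of 300 bases, which run 50 bases past the start, Tm4sf1 held 1 CpG, Sparc 4, Cyba 9 and Kyat3 14. The median of 10444 tested genes with a window was 21, and the lower and upper quartiles were 12 and 29. Windows were found for 10 of the 19 called genes, and their CpG counts ran from the 1 of Tm4sf1 to 35 for Prkaa2. Tmem109 (25), Dcdc2a (24) and Nabp1 (28) were also above the median. The letters TGANTCA (AP-1), GGAATG (TEAD) and CAAAGTCCA (HNF4), searched on both strands, were in none of the 10 windows and in 5.33%, 12.2% and 0.517% of all windows. GTTAAT, an HNF1 half-site, was in the windows of Sparc and Dcdc2a and in 4.5% of all.

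Among membrane and matrix genes, Tm4sf1 differed most. It encodes a tetraspan-like surface protein first described on carcinoma cells and abundant in endothelium. Its level was 133, 451 and 245 CPM (reads scaled to the size of the library) in bilCLiP replicates 1 to 3 and 0.0925, 0.182 and 0.20 CPM in hepCLiP replicates 1 to 3, on 20056 and 10 reads in all. The groups did not overlap, and the log2 fold change was 10.72 (SE 0.73, adjusted p = 0.000155 by edgeR).

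Sparc, which encodes a collagen-binding matricellular glycoprotein, stood at 460, 296 and 354 CPM in the bilCLiP libraries and at 27.5, 22.5 and 16.0 CPM in the hepCLiP libraries. All 3 bilCLiP lines were thus far above every hepCLiP line, with a log2 fold change of 4.07 (SE 0.38, edgeR adjusted p = 0.00222). Hapln4, a gene for a link protein that binds hyaluronan, ran the other way at 2.37, 2.53 and 2.23 CPM against 7.63, 6.91 and 7.19 CPM. Its level was low but tight in both groups, and it fell by 1.61 on the log2 scale (SE 0.21, edgeR adjusted p = 0.0183).

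Cyba encodes p22phox, the membrane subunit that NADPH oxidases need to make superoxide. It was counted at 23.1, 9.21 and 22.6 CPM in bilCLiP cells and at 0.185, 0 and 0.05 CPM in hepCLiP cells, where the 3 libraries held 5 reads together. The log2 fold change of 7.75 (SE 0.80, edgeR adjusted p = 0.0140) rests on those few reads on the hepCLiP side.

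Genes of signalling and of immune contact were called on both sides. Il34, whose product is a ligand of the macrophage receptor CSF1R, was at 22.5, 19.7 and 13.9 CPM in bilCLiP and 2.87, 4.55 and 2.25 CPM in hepCLiP libraries. Serpinb9, an intracellular inhibitor of granzyme B, was more abundant, at 514, 255 and 407 CPM against 91.9, 51.6 and 36.2 CPM. Neither pair of groups overlapped, and the log2 fold changes were 2.54 (SE 0.36) for Il34 and 2.71 (SE 0.38) for Serpinb9, both at an edgeR adjusted p of 0.0271. Lrp5, a Wnt co-receptor, stood at 62.7, 74.4 and 74.6 CPM in bilCLiP and at 157, 151 and 141 CPM in hepCLiP cells. It was lower in all 3 bilCLiP lines, with a log2 fold change of -1.09 (SE 0.13, edgeR adjusted p = 0.0137).

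Dcdc2a belongs to the list of biliary markers and was its single member called by edgeR, a call that was lost whenever 1 library was left out. Its doublecortin-domain protein sits in the primary cilium, and loss of the human counterpart causes a neonatal bile duct disease. bilCLiP libraries held 44.5, 72.1 and 66.9 CPM and hepCLiP libraries 6.80, 10.3 and 8.39 CPM. The log2 fold change was 2.85 (SE 0.42, edgeR adjusted p = 0.0304), with a wide gap between the groups.

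Gata4 encodes a zinc-finger factor that is needed for liver bud growth and is expressed in hepatoblasts. It was scarce in bilCLiP cells at 0.431, 0.661 and 0.501 CPM and ranged from 2.50 to 8.84 CPM in hepCLiP cells, with hepCLiP replicate 2 at 5.68 CPM. The log2 fold change was -3.40 (SE 0.54, edgeR adjusted p = 0.0447), and it was the called gene nearest to the threshold.

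The lower genes also included a pair of enzyme genes. Kyat3, an aminotransferase of kynurenine and cysteine conjugates, was at 6.37, 2.06 and 2.05 CPM in bilCLiP and at 93.3, 121 and 48.3 CPM in hepCLiP cells. It fell by 4.64 on the log2 scale (SE 0.66, edgeR adjusted p = 0.0271), the largest fall of the 8. Prkaa2, the alpha-2 catalytic subunit of the energy sensor AMPK, was at 11.4, 7.39 and 9.52 CPM against 28.6, 29.6 and 19.7 CPM, and it fell by 1.46 (SE 0.21, edgeR adjusted p = 0.0288).

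The remaining called genes span several functions. Rassf9, a Ras-association domain gene, was at 37.6, 29.9 and 33.9 CPM in bilCLiP and 0.925, 2.50 and 4.70 CPM in hepCLiP cells (log2 fold change 3.64, SE 0.57, edgeR adjusted p = 0.0432). Ndfip1, an adaptor of NEDD4-family ubiquitin ligases, and Nabp1, a single-stranded DNA binding protein gene, were higher by 1.06 (SE 0.15) and 0.97 (SE 0.15) on the log2 scale. Tmem109, which encodes an endoplasmic reticulum and nuclear membrane channel protein, was at 29.5, 23.5 and 29.1 CPM against 68.1, 66.1 and 58.1 CPM (log2 fold change -1.23, SE 0.14, edgeR adjusted p = 0.00927). Mapre2, for the microtubule end-binding protein EB2, had the smallest called difference at -0.82 (SE 0.12). Outside the rule that chose the named genes, and named after their values were seen, are 3 scarce called genes. The non-coding transcript 9330188P03Rik had 483 reads in the bilCLiP libraries and 1 in the hepCLiP libraries, a depth-scaled ratio of 434 with a 95% counting interval from 77.4 to 17157. Sh3tc2, a gene of endosomal trafficking in Schwann cells, had 100 reads against 1, a ratio of 89.8 with an interval from 15.7 to 3580. Lrg1, an acute-phase glycoprotein gene, had 28 reads against 253 (log2 fold change -3.31, SE 0.48, edgeR adjusted p = 0.0286).

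**Figure D1:**
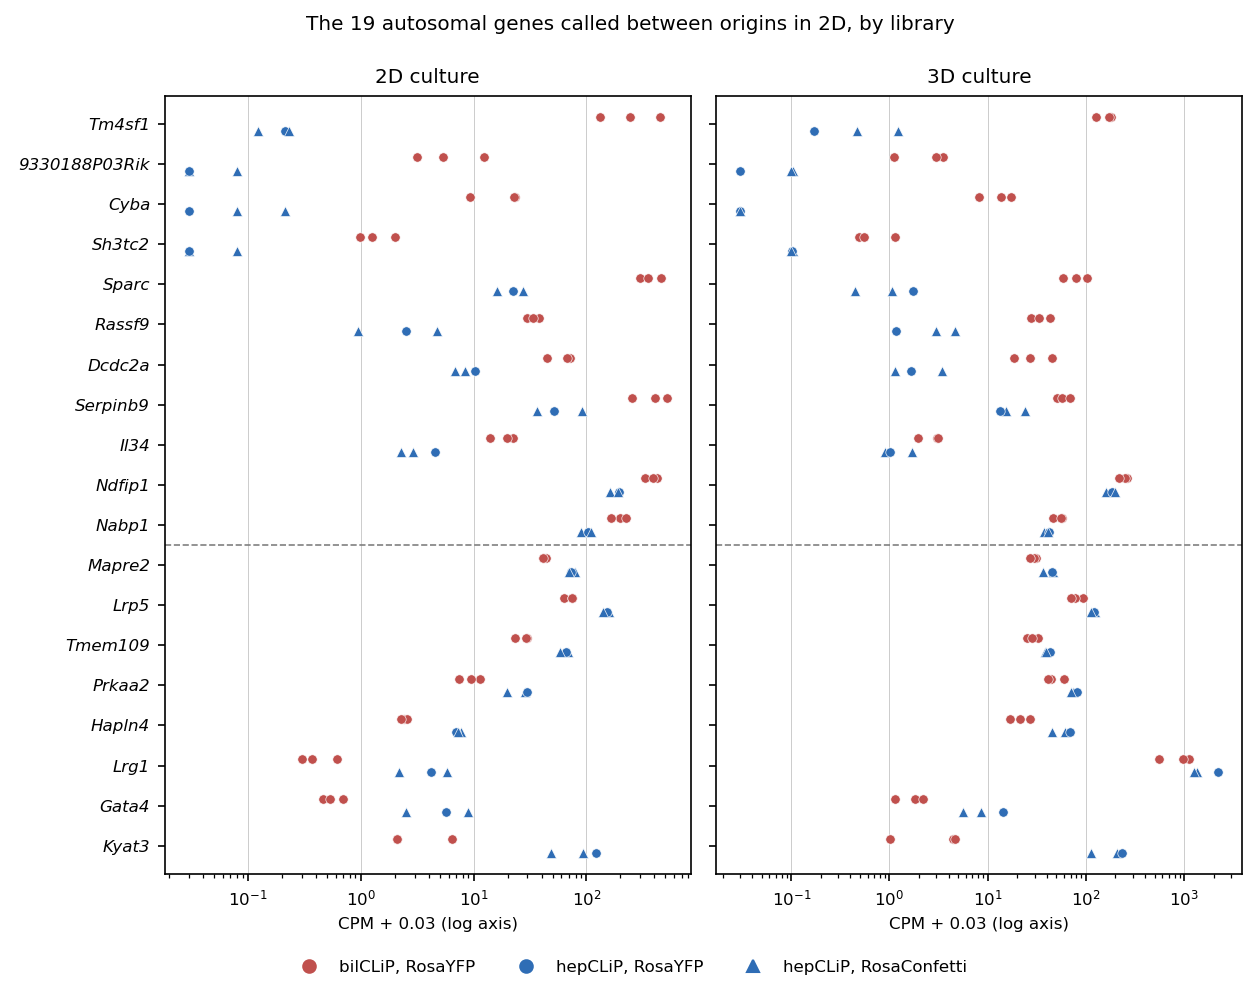
CPM plus 0.03, on a log axis, of the 19 called genes in each of the 6 libraries of 2D culture (left) and of 3D culture (right), with bilCLiP libraries in red, hepCLiP libraries in blue, RosaConfetti as triangles and genes above the dashed line higher in bilCLiP. The red and blue points of all 19 genes are separate in both cultures, and Tm4sf1 at 133 to 451 CPM against at most 0.20 CPM in 2D is the widest gap.

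Sex-chromosome transcripts and the reporter genotype moved with origin. Xist was at 812 to 1163 CPM in the 3 bilCLiP libraries and at 0 to 0.136 CPM in the hepCLiP libraries. The Y-linked genes Ddx3y, Eif2s3y, Kdm5d and Uty had 560 to 1571 reads each in hepCLiP replicates 1 and 3, at most 2 reads each in hepCLiP replicate 2, and none in the bilCLiP libraries. Origin, sex-chromosome content and, for 2 of the 3 hepCLiP lines, genotype therefore cannot be told apart in this design. hepCLiP replicate 2 is the only hepatocyte-derived line of the genotype of the bilCLiP lines. With RosaYFP libraries alone all 19 genes kept their direction, with log2 fold changes 0.801 to 1.48 times those above. That direction was fixed in advance and is no test of genotype. The same libraries were used again, and hepCLiP replicate 2 lay on the hepCLiP side for all 19. None of the 19 was called there, at edgeR adjusted p-values from 0.054 to 0.294 with 1 hepCLiP line, whose spread is taken from the other groups. That fit called 4 other genes, Serpinh1, Rpl19-ps11, Cul9 and Hoga1. Leaving out single libraries moved the count of 19 to between 5 (without bilCLiP replicate 3) and 29 (without hepCLiP replicate 2). It was 7 without bilCLiP replicate 1, 10 without bilCLiP replicate 2, 9 without hepCLiP replicate 1 and 12 without hepCLiP replicate 3. Tm4sf1, Sparc and Tmem109 were called in all 6 of these fits, Cyba, Lrp5 and 9330188P03Rik in 4, Kyat3 in 3, Serpinb9 and Ndfip1 in 2, and Dcdc2a, Nabp1 and Mapre2 in none. The other 7 genes were called in 1.

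The classical lineage markers did not separate the origins at the threshold. None of the markers tested was called by edgeR, and Cebpa and Apoa1 were called by DESeq2. Alb, for albumin, was at 0.861, 49.9 and 69.3 CPM in bilCLiP and at 142, 19.9 and 691 CPM in hepCLiP cells, so that hepCLiP replicate 2 lay within the bilCLiP range. Ttr, for the thyroxine carrier transthyretin, ran from 41.1 to 675 CPM in bilCLiP and from 73.8 to 636 CPM in hepCLiP cells. Alb in particular varied more between lines of one origin than between the origins. Hnf4a, the central hepatocyte factor, was at 135, 299 and 238 CPM against 332, 219 and 378 CPM (log2 fold change -0.47, SE 0.28, edgeR adjusted p = 0.472). Cebpa came nearest to a call among the markers, at 1.81, 1.52 and 2.32 CPM in bilCLiP and 6.2, 6.55 and 7.14 CPM in hepCLiP cells, without overlap (log2 fold change -1.82, SE 0.30, edgeR adjusted p = 0.0592). Foxa2, another hepatic factor, was close to level, with 83.4 to 87.8 CPM in bilCLiP and 74.1 to 96.5 CPM in hepCLiP cells.

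Biliary keratins were abundant in cells of both origins. Krt19 ran from 507 to 1034 CPM in bilCLiP and from 476 to 1100 CPM in hepCLiP libraries, and Krt7 from 209 to 700 CPM and from 198 to 836 CPM. Their groups overlapped almost completely (edgeR adjusted p = 0.901 and 0.925), with SEs of 0.86 on the log2 scale that leave room for differences of over 2-fold either way. Spp1, for osteopontin, was the marker whose bilCLiP libraries were all the higher ones, at 5833, 4395 and 8447 CPM against 2677, 4168 and 1233 CPM, but it was not called (log2 fold change 1.21, SE 0.48, edgeR adjusted p = 0.293). Afp, the fetal counterpart of albumin, and Epcam, a progenitor and duct surface marker, overlapped between the groups. Prom1, for the surface marker CD133, was at 4.52, 7.11 and 10.6 CPM against 32.8, 4.23 and 137 CPM, with the RosaYFP hepCLiP line again on the bilCLiP side.

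**Figure D2:**
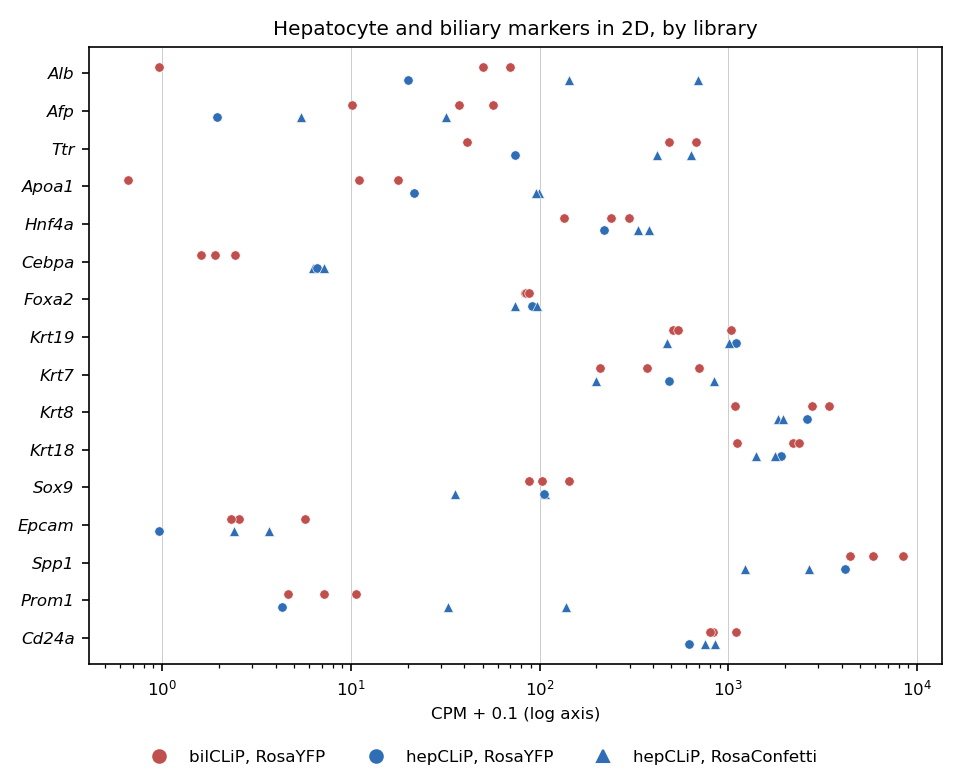
CPM plus 0.1, on a log axis, of 16 hepatocyte and biliary markers in each 2D library, with bilCLiP in red, hepCLiP in blue and RosaConfetti as triangles. Red and blue points interleave for most markers, while Cebpa (at most 2.32 CPM in bilCLiP and at least 6.2 CPM in hepCLiP), Apoa1 and Spp1 are separate.

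Lists of genes were described by how many members had separate libraries, beside the same share of all genes. The single members named from them were chosen after their values were seen unless they were called. Calls in this part are those of edgeR, with those of DESeq2, which called far more genes in all, given beside them. A count of DESeq2 calls alone is not read as a result about a list. Of 48 tested genes for plasma proteins secreted by hepatocytes, edgeR called none and DESeq2 called 14, all lower, 16 had all bilCLiP libraries below all hepCLiP libraries (33.3%, against 12.2% of all genes) and none had them above. The median log2 fold change was -1.72 and 44 of 48 were negative, while the median of all autosomal genes was -0.05. Only 38 members passed the filter on low counts with the 6 libraries of 2D culture alone, and their median was -1.165. The others passed it only when the 3D libraries were included. Several of the separate members were scarce. Vtn, for vitronectin, was at 0, 0.389 and 0.501 CPM against 3.70, 2.32 and 9.64 CPM (log2 fold change -4.11, SE 0.76, edgeR adjusted p = 0.087), and Itih3, an inter-alpha-trypsin inhibitor heavy chain gene, was the nearest to a call at -3.19 (SE 0.51, edgeR adjusted p = 0.0504).

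Some members were abundant in the RosaConfetti lines alone. Serpina1b, an alpha-1 antitrypsin gene, was at 0.172, 0.311 and 0.273 CPM in bilCLiP cells, at 141 and 276 CPM in the RosaConfetti hepCLiP lines and at 0.682 CPM in the RosaYFP hepCLiP line. Its near-identical copies share reads, so how those reads divide among the Serpina1 genes is uncertain. With RosaYFP libraries alone the median of the list was -0.45 in place of -1.72. Summed over the list, the levels were 5254 to 12322 CPM in bilCLiP and 10219 to 14163 CPM in hepCLiP libraries, with overlap. In these bulk samples, fewer cells of a type and less RNA per cell cannot be told apart.

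Hepatocyte enzymes and transporters had a similar shape. Of 40 tested, edgeR called none and DESeq2 called 7, all lower. Libraries were separate and lower for 8 (20%, against 12.2% of all genes) and separate and higher for none. The median was -2.04, or -0.85 with RosaYFP libraries alone and -1.24 without hepCLiP replicate 3. Only 17 members passed the filter on low counts with the 6 libraries of 2D culture alone, and their median was -1.313. The others tested here thus passed it only when the 3D libraries were included. Cps1, which feeds ammonia into the urea cycle, was at 0, 0.0389 and 0.0456 CPM against 1.11, 0.591 and 14.1 CPM. Fabp1, a fatty acid carrier gene, was at 0, 0.194 and 0 CPM against 0.925, 0.318 and 1.80 CPM. Both were near the detection limit in every bilCLiP library. Of 19 hepatocyte transcription factors, Cebpa and Ppara were separate and lower (10.5%, against 12.2% of all genes). Onecut2 was separate and higher (5.26%, against 8.76%), at 103 to 118 CPM against 23.9 to 59.4 CPM. Both shares were below the background. None of the 19 was called by edgeR, and 3 were by DESeq2.

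Of 35 biliary epithelial markers, Dcdc2a was called by edgeR and 4 by DESeq2 (3 higher and 1 lower), Spp1 and Dcdc2a were separate and higher (5.71%), and Lcn2 and Sstr2 were separate and lower (5.71%), both shares below the background. The median was 0.35, and it was 0.14 without bilCLiP replicate 3, 0.22 without hepCLiP replicate 2 and 0.53 without hepCLiP replicate 1. Lcn2, for the iron-siderophore binding protein lipocalin-2, was at 77.4, 73.5 and 291 CPM in bilCLiP and 487, 906 and 1043 CPM in hepCLiP libraries (log2 fold change -2.46, SE 0.60, edgeR adjusted p = 0.161). Lcn2 is also in the list of 36 NF-kB and inflammatory genes, of which edgeR called none. DESeq2 called 6 of the 36 (4 lower, with Lcn2 among them, and 2 higher). Of the 36, 9 were separate and lower (25%, against 12.2% of all genes), again with Lcn2 among them. A further 2 were separate and higher (5.56%, against 8.76% of all genes). Among them the acute-phase gene Saa3 was at 0.345, 1.59 and 25.3 CPM against 154, 212 and 32.7 CPM, and the neutrophil chemokine gene Cxcl5 at 439, 299 and 332 CPM against 994, 812 and 845 CPM, while Cxcl2 was separate and higher.

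Among lists with at least 10 tested members, the cell cycle genes had the largest share separate in one direction. Of 40, 15 were separate and lower in bilCLiP cells (37.5%, against 12.2% of all genes) and none was separate and higher. The log2 fold change was negative for 39, with a median of -0.47, and none was called by edgeR or DESeq2. Cdc20, the activator of the anaphase-promoting complex, was at 46.6, 35.1 and 25.7 CPM against 69.3, 69.1 and 81.7 CPM. The difference was smaller for Pcna, the replication clamp, at 133, 163 and 111 CPM against 165, 196 and 181 CPM. bilCLiP replicate 3 was the lowest library for both. Without it the median of the list was -0.29, and with RosaYFP libraries alone it was -0.46. Summed over the list, the levels overlapped, at 2479 to 4295 CPM in bilCLiP and 3631 to 4896 CPM in hepCLiP libraries.

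Imprinted genes leaned the other way. Of 22 tested, 6 were separate and higher in bilCLiP cells (27.3%, against 8.76% of all genes) and 2 were lower (9.09%, against 12.2%). edgeR called none and DESeq2 called 3, of which 2 were higher and 1 was lower. The median was 0.59, and it was 0.11 without bilCLiP replicate 1. Peg3 and Usp29, neighbours in one imprinted domain, were at 2461 to 3619 CPM against 1552 to 2393 CPM and at 56.7 to 80.2 CPM against 22.4 to 46.4 CPM. The non-coding Airn and Kcnq1ot1, which silence their domains in cis, and Impact and Sgce were the others. H19 and Gnas were the separate lower members. Of 16 tested homeobox and patterning genes, Gata4 was called by edgeR. Gata4, Meis1 and Msx2 were separate and lower (18.8%, against 12.2% of all genes) and were all called by DESeq2. Six4 was separate and higher (6.25%, against 8.76%).

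Among mesenchymal and epithelial-mesenchymal transition genes, Sparc was called by edgeR, and Sparc and Mmp2 by DESeq2. Of 22, 3 were separate and higher (13.6%, against 8.76% of all genes) and 1 lower (4.55%, against 12.2%). Mmp2, a gelatinase gene, was at 8.83, 2.64 and 7.29 CPM against 0.0463, 0.591 and 0 CPM, and Vim, for vimentin, was abundant and lower, at 626 to 734 CPM against 826 to 1471 CPM. Of 32 junction genes, 2 were separate and higher (6.25%) and 1 lower (3.12%), both below the background, and none was called by edgeR. Cldn6, a claudin of embryonic epithelia, was at 66.0, 109 and 26.3 CPM in bilCLiP cells and at 0.971, 0.0455 and 0 CPM in hepCLiP cells, one of 3 in this list called by DESeq2 (log2 fold change 7.59, SE 1.23, edgeR adjusted p = 0.0551). In the lists for YAP and TEAD targets, Notch, Wnt, TGF-beta and BMP, EGF, FGF and HGF signalling, collagens and integrins, interferon response, cholesterol synthesis and glycolysis, the share of separate members was 10.7% or less in either direction and edgeR called no member. The only share above that of all genes was the 10.5% separate and higher in the EGF, FGF and HGF list, against 8.76%. DESeq2 called 7 over all of these lists, Glul, Hgfac, Pdgfc, Igf1r, Col5a3, B2m and P4ha2. edgeR called no member either among NRF2 and glutathione genes, p53 targets and senescence genes, fetal liver genes, keratins and strain-variable genes. DESeq2 called Gstm2 and Igf2bp3 there. Of 39 NRF2 and glutathione genes, 6 were separate and lower (15.4%, against 12.2% of all genes). The shares in the last 4 of these lists were at or below the background in both directions. The called genes Lrp5, a Wnt co-receptor, and Lrg1, an acute-phase glycoprotein gene, are members of none of the lists.

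**Figure D3:**
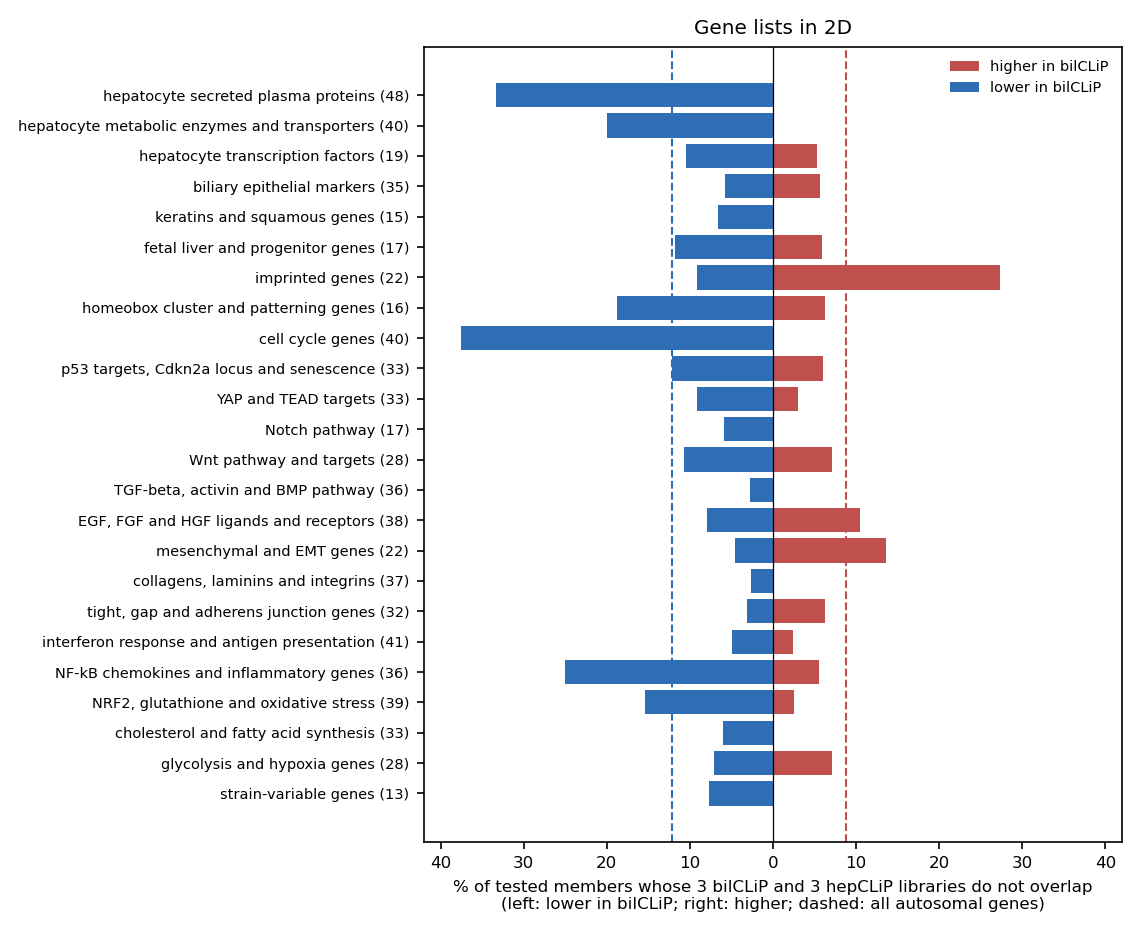
Percent of the tested members of each gene list (number in brackets) whose 3 bilCLiP and 3 hepCLiP libraries did not overlap, lower in bilCLiP to the left and higher to the right, with dashed lines at the shares of all autosomal genes (12.2% and 8.76%). Cell cycle genes (37.5%) and secreted plasma proteins (33.3%) reach farthest to the left, and imprinted genes (27.3%) farthest to the right.

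Many markers of other liver cells were at or near 0 in all 6 libraries, and some members of each list were not. The fibroblast markers Lum, Hand2 and Dpt, the endothelial markers Lyve1, Emcn and Sox18 and the immune markers Cd3e, Nkg7, Timd4 and Marco had no read in 2D, and a count of 0 allows up to 3 reads in a library. From the same lists, Ecm1 was at 74.0 to 154 CPM and Cd14 at 102 to 182 CPM in all libraries, and Flt1 was at 22.1 CPM in hepCLiP replicate 2 and at most 3.55 CPM elsewhere. Summed CPM overlapped between the origins for the mesothelial list (1498 to 1911 in bilCLiP and 1031 to 2344 in hepCLiP, mostly Krt19 and Msln), the fibroblast list (77.7 to 100 and 96.6 to 156), the endothelial list (9.99 to 14.3 and 9.30 to 29.2) and the immune list (114 to 179 and 109 to 194). In the mesothelial list, Msln ran from 333 to 989 CPM, Efemp1 from 137 to 327 CPM and Podxl from 55.2 to 116 CPM, the highest levels of Upk3b, Wt1 and Lrrn4 were 0.15, 0.364 and 0.185 CPM, and Bnc1 had no read. The part of other cell types in the origin differences was not tested.

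The same origin comparison in 3D spheroids, induced with oncostatin M, called 14 genes (0.0985% of those tested). Tm4sf1, Sparc, Cyba, Dcdc2a, Kyat3 and Hapln4 were called in both cultures, which is 31.6% of the 2D calls and 42.9% of the 3D calls. All 19 genes called in 2D had separate libraries in the same direction in 3D, but libraries of one origin with the same number deviated together in 2D and 3D, so the 3D values are not independent of those in 2D. Levels in 3D are given for a few genes, none of which passed the test of a difference between cultures. Lrg1 was at 0.272 to 0.592 CPM in bilCLiP and 2.17 to 5.75 CPM in hepCLiP cells in 2D, and at 558 to 1122 CPM and 1265 to 2220 CPM in 3D, where its log2 fold change was -0.88 (SE 0.38). Sparc was lower in 3D in all lines, at 58.1 to 102 CPM against 0.417 to 1.70 CPM, with a log2 fold change of 6.24 (SE 0.45). Cyba had no read in the hepCLiP libraries in 3D and stood at 8.04 to 17.1 CPM in the bilCLiP libraries. A test of the difference of the origin effect between cultures called 0 autosomal genes by edgeR, with 511 at an unadjusted p under 0.05 and a lowest adjusted p of 0.937. DESeq2 called 6. That fit leaves out the pairing of 2D and 3D libraries by line. With the line as a fixed block edgeR called 0, with 1191 at an unadjusted p under 0.05. limma-voom with the line as a random block called 0, with 1048.

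**Figure D4:**
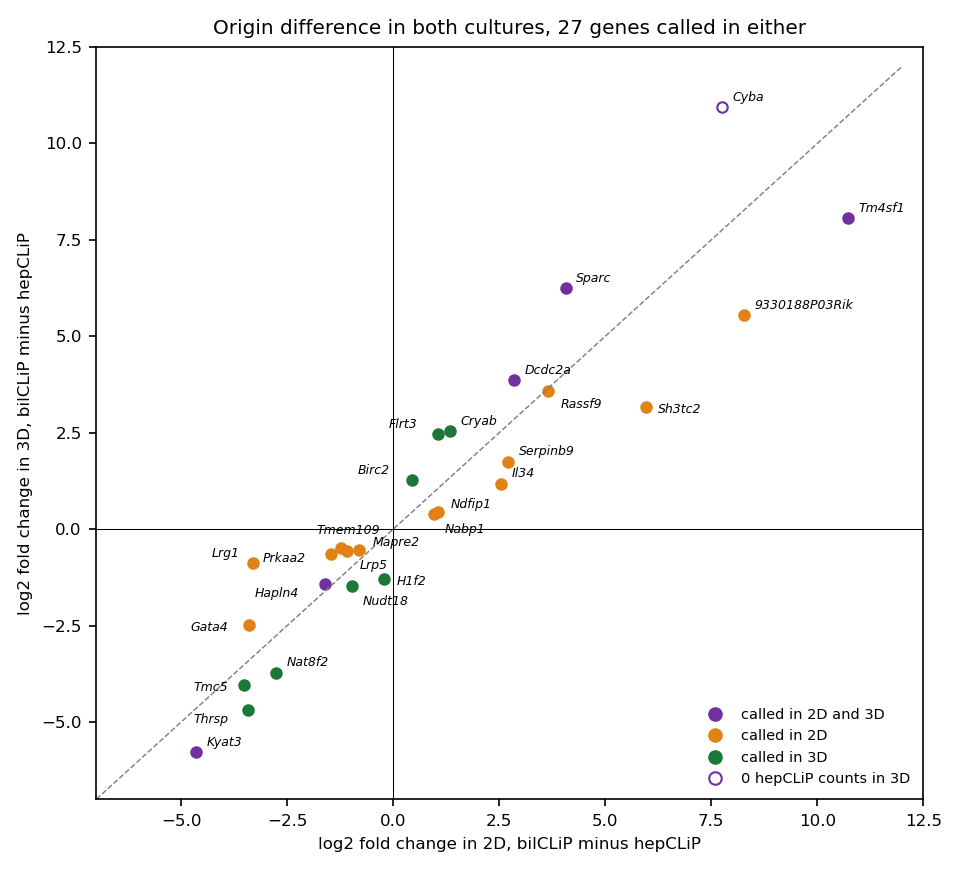
Log2 fold change of bilCLiP minus hepCLiP in 2D (horizontal) and in 3D (vertical) for the 27 genes called in either culture, coloured by where they were called, with equality dashed and an open circle for Cyba, whose 3D value is set against 0 hepCLiP counts. All 27 lie in the lower left or upper right of the plot, with Tm4sf1 and Cyba farthest up and Kyat3 farthest down.

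The 6 lines also differed among themselves over whole chromosomes. In bilCLiP replicate 2 the median gene of chromosome 14 lay 0.607 below the mean of the 6 libraries on the log2 scale, on 305 genes. In bilCLiP replicate 1 chromosome 9 lay 0.279 above it and chromosome 15 was at -0.229, while in hepCLiP replicate 1 chromosome 15 was at 0.359 and chromosome 12 at -0.244, and in hepCLiP replicate 2 chromosome 19 was at 0.280. Over the 19 autosomes, the profile of each 2D library correlated with that of the 3D library of the same number at 0.847 to 0.992 and with the 3D library of any other line at 0.434 at most. Beside these values of single lines, the median log2 fold change between origins was -0.27 on chromosome 14 and -0.28 on chromosomes 15 and 19, against -0.05 over all autosomes. Tmem109 and Lrp5 are both on chromosome 19, and with the medians of each chromosome removed 14 genes were called in place of 19, a fit added after the data were seen. The part of such shifts in single calls was not tested further.

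**Figure D5:**
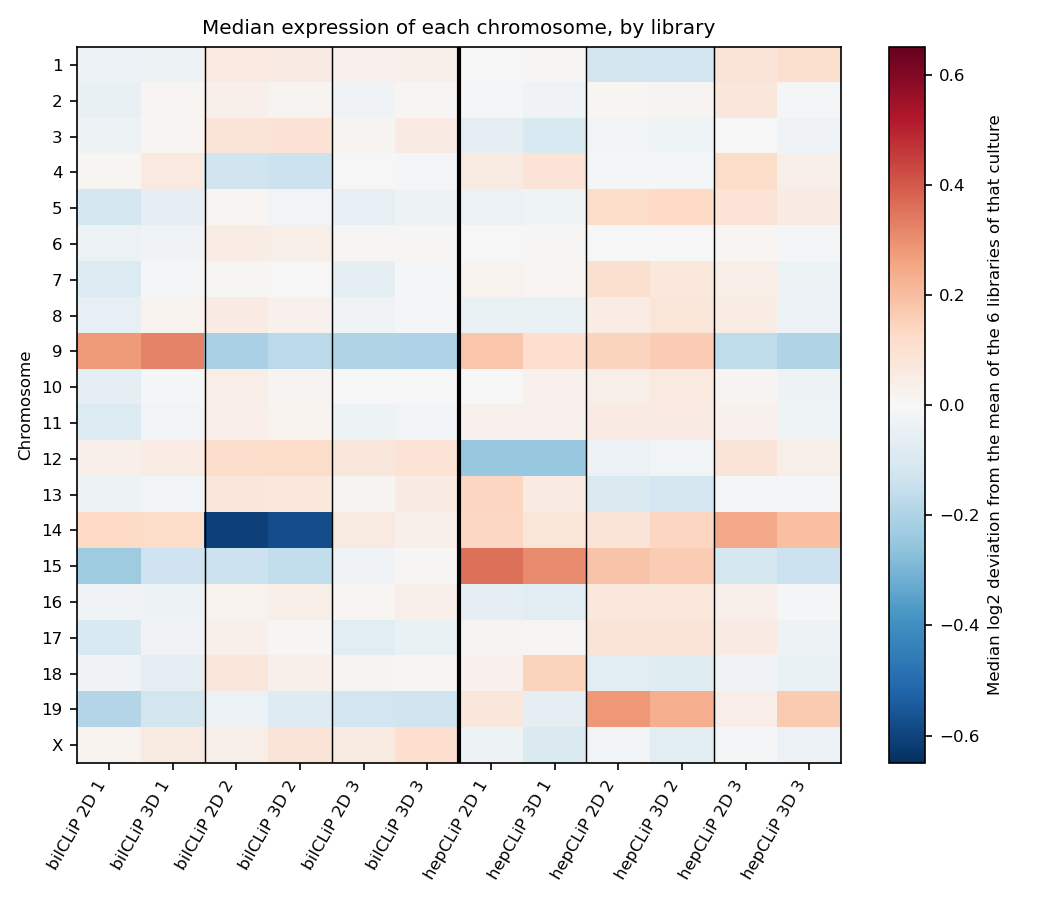
Median log2 deviation of the genes of each chromosome from the mean of the 6 libraries of the same culture, in 2D and 3D libraries of each line side by side. Chromosome 14 of bilCLiP 2 (-0.607 in 2D) is the darkest cell, and the 2D and 3D columns of a line resemble each other.

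Sequencing depth was similar, with 17205183 to 21253382 reads counted per 2D library and 13501 to 14067 genes with at least 10 reads. Across genes, log2 levels correlated at 0.960 to 0.977 between bilCLiP libraries, at 0.961 to 0.973 between hepCLiP libraries and at 0.947 to 0.968 between origins, ranges that overlap. Each pair of libraries differed by far more than the sampling noise of the counts, with a chi-square per degree of freedom of at least 58.5.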

How the data were processed

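RNA-seq counts of 12 libraries were used. The authors deposited raw counts per gene and a second table of signal values, which are those counts divided by 1 constant per sample. Per the submitters' processing notes, STAR 2.7.10b, featureCounts 2.0.1, DESeq2 and the build GRCm39 were used, and neither annotation nor counting options are stated in the sources used here. Groups were taken from the sample titles.

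Genes were filtered with filterByExpr, scaled by TMM and fitted with edgeR 4.0.16 in R 4.3.3 (quasi-likelihood, robust) over all 12 libraries as 4 group means, and p-values were adjusted over all 14798 tested genes, of which 14217 were autosomal. CPM are counts scaled to the TMM-adjusted library size, and errors are SEs of the log2 fold change. Gene chromosomes were assigned by symbol from a GRCm38 annotation. Alternatives used DESeq2 1.42.0 and limma 3.58.1, other filters and scalings, and each library left out. The fit was tested on simulated counts. Named genes are the 12 largest rises and falls among called, named autosomal genes with separate libraries whose mean reached 5 CPM in either group, 18 markers, and called list members; some of these are not reported here. The comparison and gene lists were chosen with earlier results of these data known. Replicate numbers did not pair the origins but did pair 2D with 3D libraries (correlations of deviations 0.429 to 0.508). Count intervals cover counting error only.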

Additional observations from a re-analysis of the deposited data

How the results depend on the processing

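The counts of called genes depended strongly on the test and on single libraries. DESeq2 called 455 genes in 2D (145 higher and 310 lower, with all 19 among them), 256 of them at least 2-fold, 553 in 3D and 6 for the difference between cultures. The 6 libraries of 2D culture fitted alone gave 4 genes, all at least 2-fold. RosaYFP libraries alone gave 4 in 2D, all at least 2-fold, and 8 in 3D, and a test against a 2-fold change gave 4, 4 and 6. A block on the replicate number gave 1 gene in 2D, at least 2-fold, and 4 in 3D, where the numbers do not pair the origins (correlations of same-numbered libraries 0.0346, 0.128 and 0.0215, and bilCLiP replicate 3 correlated best with hepCLiP replicate 1). The authors' normalized table under limma gave 23 genes in 3D, and chromosome offsets, added after the data were seen, gave 10 genes at least 2-fold. Leaving out 1 library at a time gave 5 to 29 genes in 2D, 5 to 28 at least 2-fold, 7 to 15 in 3D and 0 to 3 for the difference between cultures. The other settings stayed within 1.5 times the counts reported.

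The 19 called genes kept their direction under the alternatives that could be fitted, while most lost the threshold under some. As their 2D libraries were separate and were used again in each fit, the kept direction was largely fixed in advance. Tm4sf1 was called in 17 of 18 alternatives, Sparc in 16, Tmem109 in 14 and Dcdc2a, Gata4, Mapre2, Prkaa2 and Rassf9 in 6. Among the markers, the log2 fold change changed sign with RosaYFP libraries alone for Alb (1.00), Hnf4a (0.026), Krt8 (-0.11), Krt18 (-0.0083) and Prom1 (0.80). Ttr changed sign under limma-voom with a random block (-0.19) and with the authors' normalized table (-0.16), and Foxa2 with chromosome offsets (0.0043). When single libraries were left out, the values ran from -0.52 (without bilCLiP replicate 2) to 0.70 for Ttr, from -0.14 to 0.038 (without hepCLiP replicate 3) for Foxa2 and from -0.80 to 0.31 (without hepCLiP replicate 3) for Krt7. They ran from -0.15 to 0.53 for Krt8 and from -0.028 to 0.44 for Krt18, both lowest without bilCLiP replicate 3. The cause was not tested. Cebpa passed the threshold under DESeq2 (adjusted p = 3.39e-05) and without the filter on low counts (edgeR adjusted p = 0.0207).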

Other observations

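Without hepCLiP replicate 2, both remaining hepCLiP libraries of 2D culture were RosaConfetti, and 29 genes were called by edgeR, 10 of them among the 19. Of the 29, 19 were lower in bilCLiP cells, and they included the hepatocyte genes Serpina1a, Serpina1b, Serpina1c and Serpina1d, Hpn (hepsin, a membrane protease), Itih3, Ambp (the bikunin precursor) and Slc6a13 (a GABA and taurine transporter). The alpha-1 antitrypsin genes share reads among near-identical copies.

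In 2D, 25 genes were at least 4-fold higher in both RosaConfetti libraries than in each of the 4 RosaYFP libraries, after adding 0.5 CPM, and 18 were lower. Of the 25, 6 kept that pattern in 3D, namely Amd2, Ctdsp2-ps, Hmga1b, Ndufa12-ps, Serpina1c and Tdg-ps2. Hmga1b was at 36.4 and 47.9 CPM in the RosaConfetti libraries and at 0.732 to 1.14 CPM in the others, and Apoe, for apolipoprotein E, was at 1093 and 1437 CPM against 37.6 to 138 CPM in 2D but did not keep the pattern in 3D. Of the 18 lower genes, 14 kept it in 3D, most of them pseudogenes. Camk2b, a neuronal kinase subunit gene, was at 0.555 and 1.70 CPM in the RosaConfetti libraries and at 28.4 to 45.7 CPM in the others. Pseudogene counts are uncertain where reads are shared with the parent gene. Genotype and line cannot be told apart here.

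Of the 4 genes called with RosaYFP libraries alone, Cul9 was at 0.136 CPM in hepCLiP replicate 2 and at 19.9 to 30 CPM in the 5 other 2D libraries. Serpinh1, the collagen chaperone gene, was at 208 to 340 CPM in bilCLiP cells and at 33.8, 0.136 and 1.55 CPM in hepCLiP cells.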
